A study of Mus musculus with 32 samples.

Results

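Macrophages and monocytes are blood-derived or tissue-resident phagocytes, and the 34 genes described here are transcripts by which these cells are usually recognised. They were given as a list of names, were matched by symbol to the Ensembl IDs of the count tables, and are 34 of 41388 genes in the tables. They were read in 32 RNA-seq libraries of primary chondrocytes, the cells of cartilage, taken from mouse femoral heads of 2 inbred strains, LG/J and SM/J, at postnatal day 21. The cells were grown for 4 days in serum-containing medium and collected unpassaged, with no treatment in any group. Each strain was sampled in both sexes, with 8 libraries for each of the 4 combinations, numbered 1 to 8 in the labels. The labels do not say whether libraries came from separate animals, so each p-value measures the spread between libraries, which may in part be technical.

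The receptor Csf1r binds the growth factors Csf1 and Il34 and keeps macrophages alive. Tyrobp and Fcer1g are small membrane adaptors with which many myeloid receptors signal, and the integrin pair Itgam and Itgb2, the phosphatase Ptprc (CD45) and the transcription factor Spi1 (PU.1) mark the leukocyte lineage. Ccr2 and Cx3cr1 are chemokine receptors, Ccr2 being typical of inflammatory monocytes. Cybb, Ncf1 and Ncf4 are parts of the phagocyte NADPH oxidase, which makes superoxide, and Mrc1, Cd163 and the C1q genes are known from resident tissue macrophages. In cartilage such cells are not a normal part of the matrix-embedded tissue, but they lie close by in marrow, bone and synovium. These are bulk libraries, in which fewer cells of a type and less RNA per cell cannot be told apart.

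Total counts ran from 15840330 to 25571598 per library. Cartilage genes were present throughout: Col2a1, the main cartilage collagen, lay between 4551 and 14862 CPM in 30 libraries (CPM is the count relative to the library's size, scaled by the TMM method here and below). In LG/J female 1 and LG/J male 1 it was 629.3 and 1379 CPM, and the summed level of 14 cartilage genes was 1796 and 2881 CPM there, against 11692 to 53430 CPM in the other 28 libraries apart from the LG/J male 6 and SM/J female 2 libraries described next. Transcripts of both sexes were present in 6 libraries (numbers 4 and 5 of the LG/J females, 3 and 4 of the SM/J females, 2 and 3 of the SM/J males), with Xist at 15.24 to 55.93 CPM and Ddx3y at 20.27 to 112.8 CPM. In 6 pairs of libraries within a group the difference was under 5 times sampling noise.

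A pair of libraries stood far above the rest, LG/J male 6 and SM/J female 2, which the list's own rule names as the richest. Their levels are therefore a description. Leaving out Cd68, Cd14 and Laptm5, which were abundant in all libraries, the other 31 genes summed to 1150 CPM in LG/J male 6 and 1185 CPM in SM/J female 2. The other 15 LG/J libraries ran from 14.16 to 119.4 CPM with a median of 34.75, and the other 15 SM/J libraries from 22.6 to 394.7 CPM with a median of 157.8. LG/J male 7 (119.4 CPM) was next within LG/J, and SM/J male 8 (394.7 CPM) and female 8 (342.4 CPM) were next within SM/J. LG/J male 6 was highest in its strain for 33 of 34 genes, and SM/J female 2 for 32 of 34. In both libraries the cartilage genes were within the range of the others, at 36901 and 32016 CPM, and neither was among the libraries with transcripts of both sexes.

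**Figure D1:**
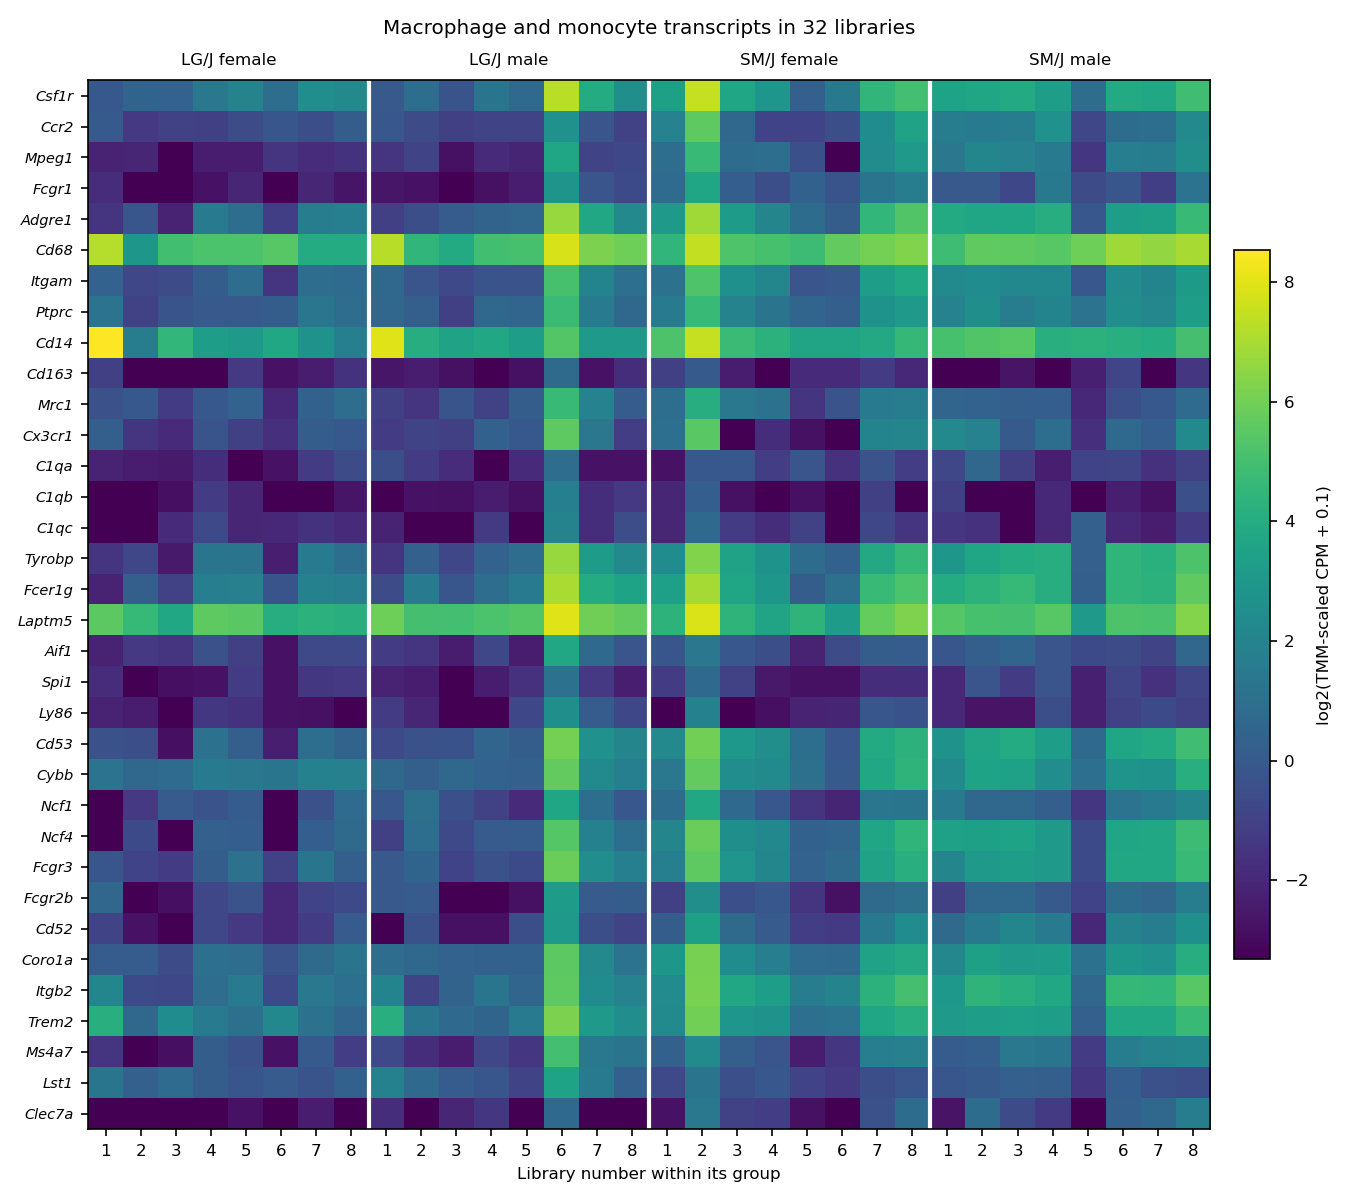
Level of each of the 34 genes (rows) in each of the 32 libraries (columns, numbered within 4 groups), as colour on a scale of log2(TMM-scaled CPM + 0.1). The columns of LG/J male 6 and SM/J female 2 are bright over nearly all rows, whereas Cd14 is brightest in LG/J female 1 (370.5 CPM) and LG/J male 1 (249.7 CPM).

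Csf1r showed the pattern most plainly. It was at 159.3 CPM in LG/J male 6 and 178 CPM in SM/J female 2. The other 15 LG/J libraries lay between 0.746 and 15.66 CPM with a median of 1.83, and the other 15 SM/J libraries between 1.15 and 31.26 CPM with a median of 12.57. The ranges of the strains overlapped, because SM/J female 5 (1.15 CPM), male 5 (1.79 CPM) and female 6 (2.65 CPM) lay inside the LG/J range, above 3, 6 and 10 of the other 15 LG/J libraries. The mean of Csf1r over LG/J libraries was 2.73 ± 1.74 CPM for females and 23.49 ± 55.08 CPM for males (SD, n = 8). Over SM/J libraries it was 33.26 ± 59.31 CPM for females and 13.66 ± 7.88 CPM for males (SD, n = 8), and the SD exceeded the mean in the 2 groups that hold the richest libraries. Adgre1, which encodes the macrophage surface protein F4/80 (GRCm38 chr17:57358686-57483529), followed the same order, with 104.5 and 116.1 CPM in the 2 richest libraries and medians of 1.27 in the other LG/J and 10.41 in the other SM/J libraries. SM/J females 5 and 6 and SM/J male 5 were the 3 lowest SM/J libraries for 19 of 34 genes and under the SM/J median for 29.

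In the 2 richest libraries the adaptors and Cd68 had the highest levels per length. In RPKM, reads scaled for both gene length and library size, Tyrobp reached 202 in LG/J male 6 and 135 in SM/J female 2, Fcer1g 182 and 148, and Cd68, a lysosomal glycoprotein of phagocytes, 199 and 135. Over all 32 libraries the median was highest for Cd68, at 35.7 RPKM, against 6.65 for Tyrobp and 7.3 for Fcer1g. Spi1 was at 0.857 and 0.566 RPKM, and the complement genes C1qa, C1qb and C1qc were at 0.789 to 3.41 RPKM in these 2 libraries. The scavenger receptor Cd163 was at 0.403 and 0.198 RPKM. The richest libraries thus held Tyrobp, Fcer1g and Csf1r (36.1 and 35.3 RPKM) at high levels and C1q genes and Cd163 at low ones. Even so, these 2 were the highest of all libraries for C1qb, C1qc, Cd163 and Spi1, and LG/J male 6 was highest for C1qa. The mannose receptor Mrc1 was at 4.93 and 2.74 RPKM in them. Spi1, C1qb, C1qc and Cd163 had too few reads over the 32 libraries for the tests, which left 30 of the 34 genes.

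The median gain over neighbouring libraries was larger in LG/J male 6 than in SM/J female 2, over unequal sets of genes. Cx3cr1, Ccr2, Cd14, Laptm5 and Ly86 went the other way. For Cx3cr1 the median of the other 7 libraries was 0.433 CPM in LG/J males and 0.191 CPM in SM/J females. The part of the background level in these gains was not tested. Of 28 genes with at least 3 reads as the median of the other 7 LG/J male libraries, LG/J male 6 was at least 10 times that median for 25, and the median ratio was 33.2. Cx3cr1 had a ratio of 110 and Csf1r of 87.2, against 6.79 for Cd68 and 3.59 for Cd14. In SM/J female 2, 16 of 33 genes were at least 10 times the median of the other 7 SM/J female libraries, with a median ratio of 9.43. There Cx3cr1 had a ratio of 234 and Ccr2 of 32.9, against 3.15 for Aif1 and 2.54 for C1qa. Among all genes kept for testing and at 5 CPM or more in the library, 158 of 9657 (1.64%) in LG/J male 6 and 92 of 9784 (0.94%) in SM/J female 2 were at least 10 times the median of the other 7. Of these, 76 were shared, 48.1% of the first set and 82.6% of the second.

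**Figure D2:**
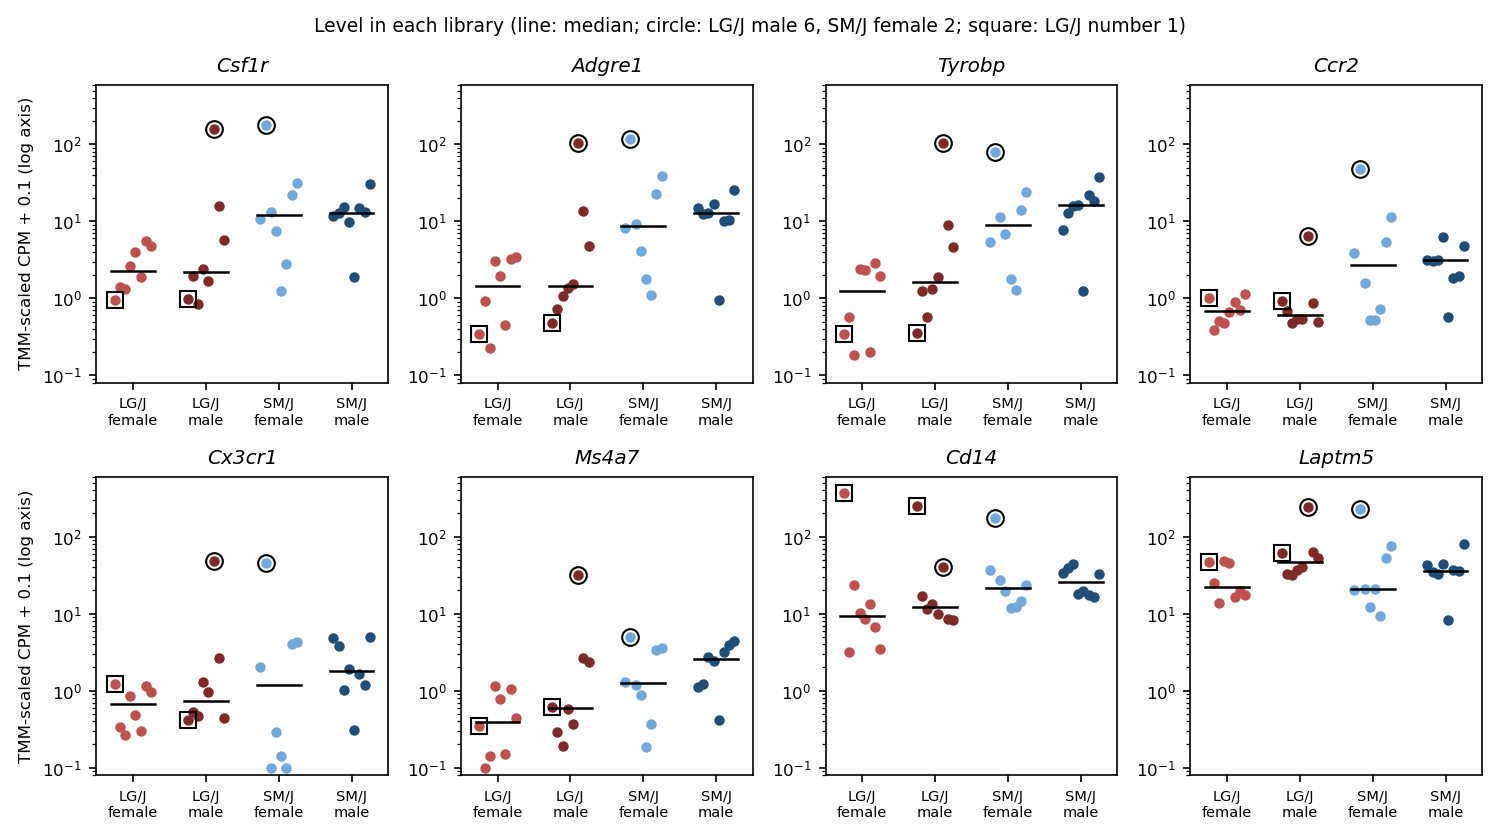
Level of 8 genes in each library, as TMM-scaled CPM + 0.1 on a log axis, by strain and sex (points: libraries; line: median of 8). Circles mark LG/J male 6 and SM/J female 2, and squares mark the LG/J libraries numbered 1, which are highest for Cd14 and among the lowest for Csf1r, Adgre1 and Tyrobp.

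Over both sexes, 12 of the 30 genes tested were lower in LG/J than in SM/J and 1 was higher (edgeR quasi-likelihood test, Benjamini-Hochberg adjusted p under 0.05 over all 16136 genes tested). Among all genes tested, 13.5% were called lower and 16.4% higher in LG/J. The median log2 fold change was -1.30 over the 30 genes and 0.02 over all genes, and 28 of the 30 were below 0. The 12 lower genes were Ccr2, Mpeg1, Fcgr1, Tyrobp, Fcer1g, Cd53, Ncf4, Fcgr3, Cd52, Coro1a, Itgb2 and Clec7a, and the higher gene was Lst1.

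Clec7a, which encodes the fungal glucan receptor dectin-1 and is annotated as a polymorphic pseudogene in the reference strain, had the largest difference, with a log2 fold change of -3.40 ± 0.80 (SE; adjusted p = 0.0014, edgeR). It had no reads in 12 libraries and was at 1.55 CPM in LG/J male 6, 2.63 in SM/J female 2 and 3.12 in SM/J male 8. Mpeg1, a pore-forming protein of phagosomes, was at 0 to 0.49 CPM in the other 15 LG/J libraries (median 0.176) and at 0 to 8.18 CPM in the other 15 SM/J libraries (median 2.75), and at 12.59 and 25.77 CPM in the 2 richest. Its log2 fold change was -3.04 ± 0.72 (adjusted p = 0.00148, edgeR). The chemokine receptor Ccr2 (chr9:124101950-124113557) was at 0.287 to 1.03 CPM in the other 15 LG/J libraries and at 0.421 to 11.22 CPM in the other 15 SM/J libraries, so that most of the LG/J range lay within the lowest part of the SM/J range. It was 6.29 CPM in LG/J male 6 and 47.99 CPM in SM/J female 2, and its log2 fold change was -2.53 ± 0.58 (adjusted p = 0.00107, edgeR).

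Among the Fc receptors, which bind antibody, Fcgr1 and Fcgr3 fell in LG/J by 2.68 ± 0.68 and 1.85 ± 0.64 on the log2 scale (adjusted p = 0.00313 and 0.0283, edgeR). Fcgr1 was near the floor, at 0 to 0.766 CPM in the other LG/J libraries (median 0.0573). In the other SM/J libraries it was at 0.357 to 3.087 CPM (median 0.899). The inhibitory receptor Fcgr2b, with -0.69 ± 0.62 (adjusted p = 0.437), did not pass. Of the oxidase genes, Ncf4 fell by 2.60 ± 0.68 (adjusted p = 0.00389), whereas Cybb (-1.15 ± 0.55, adjusted p = 0.114) and Ncf1 (-0.93 ± 0.57, adjusted p = 0.238) did not pass. Ncf4 was at 0 to 3.64 CPM in the other LG/J and 0.5256 to 28.15 CPM in the other SM/J libraries. Itgb2, the beta-2 integrin chain, fell by 2.30 ± 0.56 (adjusted p = 0.0022), while its partner chain Itgam, at -1.43 ± 0.57, missed the threshold (adjusted p = 0.0545). The adaptors Tyrobp and Fcer1g fell by 1.96 ± 0.70 and 1.88 ± 0.68 (adjusted p = 0.0342 and 0.0345).

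Csf1r (-1.41 ± 0.68, adjusted p = 0.12), Adgre1 (-1.84 ± 0.71, adjusted p = 0.0503) and Ptprc (-1.18 ± 0.49, adjusted p = 0.0675) did not pass with all libraries in the fit. Without the 2 richest libraries, 18 of the 29 genes then tested were lower in LG/J and 1 was higher, against 14.3% lower among all genes, and the median was -1.97. All 13 genes called in the full fit were called there too, and Csf1r (-1.97, adjusted p = 0.00151), Adgre1 (-2.47, adjusted p = 0.00136), Itgam, Ptprc, Cybb and Ms4a7 were added (edgeR). Leaving out LG/J male 6 alone gave 25 calls (30.4% of all genes, either direction). Leaving out SM/J female 2 alone gave 9 (29.5%), with Tyrobp, Fcer1g, Fcgr3 and Coro1a lost. Tyrobp and Fcer1g also lost their calls without SM/J male 8, without the LG/J libraries numbered 1, with close pairs summed, and when the 6 libraries with transcripts of both sexes were left out. In these settings the log2 fold change was -1.79 to -2.34 for Tyrobp and -1.70 to -2.20 for Fcer1g, close to the values with all libraries. Cd14, the co-receptor for bacterial lipopolysaccharide, changed direction: it was 0.57 ± 0.63 (adjusted p = 0.541) in the full fit and -1.44 ± 0.39 (adjusted p = 0.00486) without the LG/J libraries numbered 1.

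**Figure D3:**
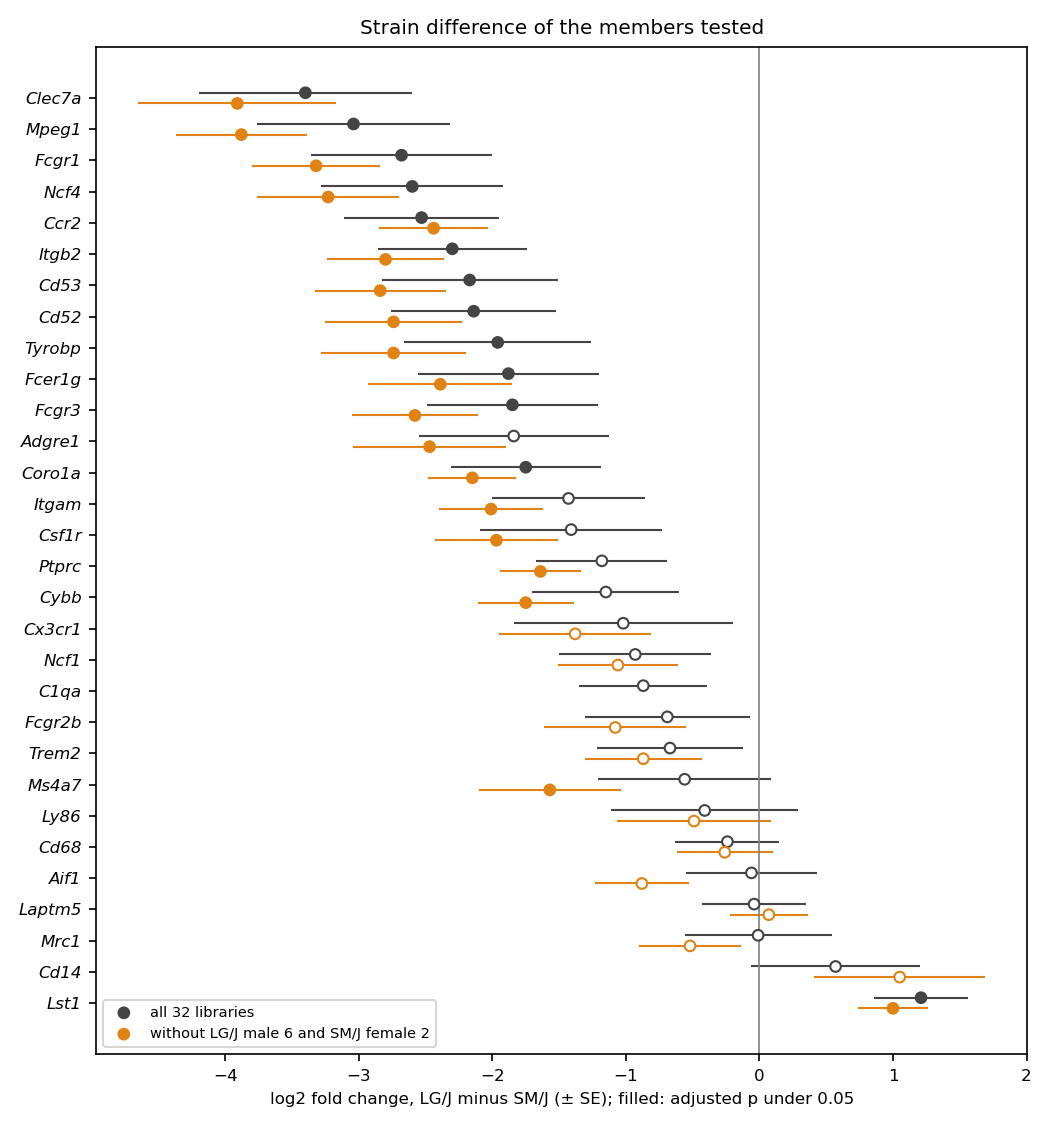
Strain difference (log2 fold change, LG/J minus SM/J, ± SE) of the 30 genes tested over both sexes, with all 32 libraries (grey) and without the 2 richest (orange), filled where the adjusted p was under 0.05. Points for most genes move left when the 2 libraries are removed, Csf1r from -1.41 to -1.97, and C1qa was tested only with all libraries.

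Lst1, a small leukocyte protein, went the other way. It was at 0.446 to 3.60 CPM in the other 15 LG/J libraries (median 1.13) and at 0.263 to 1.15 CPM in the other 15 SM/J libraries (median 0.67), with 11.61 CPM in LG/J male 6 and 2.23 CPM in SM/J female 2. Its log2 fold change was 1.21 ± 0.35 (adjusted p = 0.00815, edgeR).

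The list showed no difference between sexes that passed the test, yet the 2 richest libraries sit in opposite sexes. In females 16 of the 30 genes were lower in LG/J and 0 were higher, against 6.49% and 6.87% among all genes, and Csf1r was at -3.61 ± 1.04 (adjusted p = 0.018, edgeR) and Mpeg1 at -5.30 ± 1.13 (adjusted p = 0.00113). Under limma voom 1 of the 16 calls in females was kept. Without SM/J female 2, 8 of the 16 calls were kept, and Csf1r (-2.20) was not among them. In males 0 were lower and Lst1 was higher (1.79 ± 0.50, adjusted p = 0.00816), against 9.48% lower and 12.8% higher among all genes, and Csf1r was at 0.79 ± 0.93 (adjusted p = 0.61). Without LG/J male 6, Lst1 was at 0.95 in males and no longer passed, and the value for Csf1r, strain difference in males, was -1.73. Without the 2 richest libraries, 17 of 29 genes were lower in LG/J females (6.25% of all genes) and 14 of 29 in LG/J males (9.43%). A strain difference that was unequal in females and males was called by edgeR for 0 of 30 genes, against 0.0062% of all genes, and DESeq2 and limma voom also called 0. At an unadjusted p under 0.05 there were 20 of 30 genes, 3 without LG/J male 6, 1 of 29 without both richest libraries and 0 under limma voom. Between males and females, edgeR called 0 of 30 genes in LG/J (0.0496% of all genes) and 0 of 30 in SM/J (5.76% of all genes). At an unadjusted p under 0.05 there were 24 of 30 genes in LG/J, 0 without LG/J male 6, and 2 of 30 in SM/J. The percentages of all genes printed here are at adjusted p. No share of all genes is given beside the unadjusted counts, so they cannot be set against a background. For LG/J, DESeq2 called 1 (0.124% of all genes) and limma voom 0 (0.0868%), and for SM/J both called 0 (8.54% and 15.1%).

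The genes rose and fell together across libraries. Within SM/J, the Spearman correlation of log2 CPM with Csf1r over 16 libraries had a median of 0.86 over 29 genes, against -0.01 over 16106 other genes, and 25 of 29 reached 0.5, as did 3.91% of the other genes. Fcer1g (0.96), Cd53 (0.95) and Ncf4 (0.94) were closest to Csf1r, and C1qa (0.21) and Fcgr1 (0.41) farthest. Within LG/J the median was 0.61 and 18 of 29 reached 0.5, as did 9.55% of the other genes. Fcer1g was again closest (0.93), whereas Cd14 (-0.41), C1qa (-0.04), Lst1 (0.02), Clec7a (0.06) and Trem2 (0.08) did not follow Csf1r. C1qa had few reads per library in both strains, and Clec7a in LG/J, so their correlations there are uncertain. Without the richest library of each strain the medians were 0.84 in SM/J and 0.53 in LG/J, and without the LG/J libraries numbered 1 the LG/J median was 0.81. These values share libraries and depth, and they are given with no p.

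**Figure D4:**
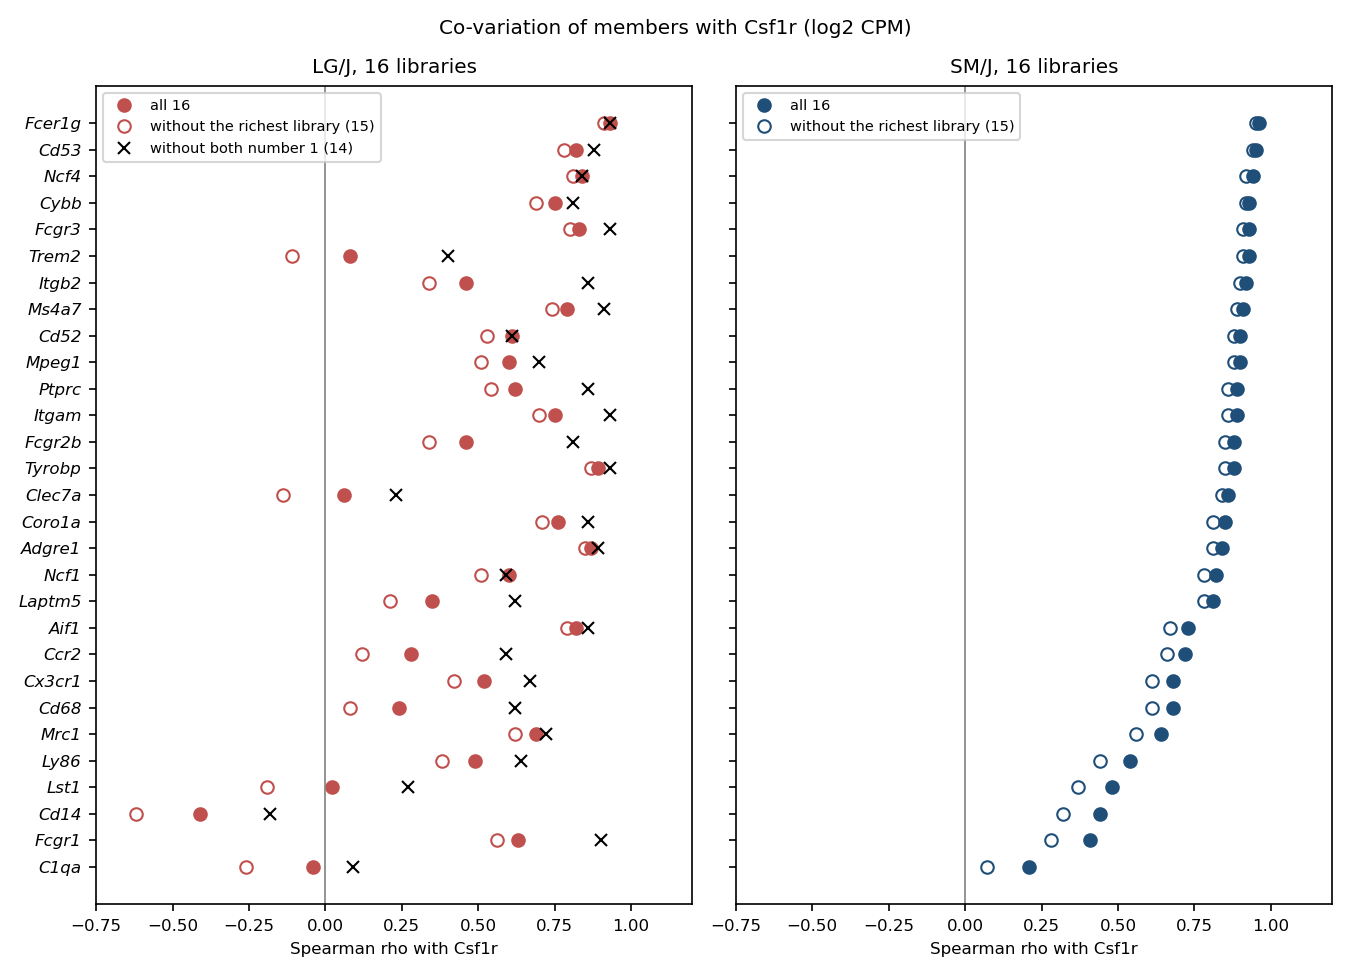
Spearman correlation of each gene with Csf1r across the 16 LG/J (left) and 16 SM/J libraries (right), with all libraries (filled), without the richest library (open) and, for LG/J, without both libraries numbered 1 (crosses). In SM/J 25 of 29 genes lie at 0.5 or above, and in LG/J Cd14 lies at -0.41.

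Cd14, Cd68 and Trem2 were high in a pair of LG/J libraries where Csf1r was low. Cd14 was highest of all libraries in LG/J female 1 (370.5 CPM) and LG/J male 1 (249.7 CPM), where Csf1r was at 0.863 and 0.884 CPM, Tyrobp at 0.247 and 0.253 CPM and Fcer1g at 0.123 and 0.568 CPM. Cd68 was at 148.4 and 151.2 CPM there, and Trem2, a lipid-sensing receptor that signals through Tyrobp, at 18 and 17.8 CPM. Laptm5, a lysosomal membrane protein of blood cells, never fell below 8.25 CPM, and in the other 15 LG/J libraries it lay between 13.76 and 62.3 CPM. The same pair of libraries was high in S100a8 (91.61 and 30.49 CPM) and Camp (26.26 and 17.99 CPM), antimicrobial genes also made by neutrophils, while the neutrophil genes S100a9 and Ly6g were at or under 0.126 CPM. The part of other cells in these levels was not tested.

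At an equal level of 5 reference genes (Tyrobp, Fcer1g, Laptm5, Spi1 and Csf1r, their mean log2 CPM taken as a covariate), a strain difference remained for some genes. Of the other 26 genes tested, 9 were lower and 2 higher in LG/J, against 12.6% and 14.2% of all genes (edgeR). The log2 fold change of Fcgr1 was -2.03 ± 0.40 (adjusted p = 0.000196), Mpeg1 was at -1.79 ± 0.34 (adjusted p = 0.000162) and Ncf4 at -1.32 ± 0.26 (adjusted p = 0.000287). Clec7a, Itgb2, Cd53, Cd52, Fcgr3 and Coro1a were the other genes lower in LG/J. Higher in LG/J were Lst1 (1.76 ± 0.30, adjusted p = 3.12e-05) and the mannose receptor Mrc1 (0.96 ± 0.23, adjusted p = 0.00215). With Csf1r alone as the covariate 10 of the 11 calls were kept, and with Ptprc 6 were. The calls lost with Ptprc were those of Clec7a (-1.81), Cd52 (-0.85), Cd53 (-0.83), Fcgr3 (-0.53) and Coro1a (-0.40), whose log2 fold changes stayed below 0. Without the 2 richest libraries 8 were kept, Mrc1, Cd52 and Clec7a being lost. The reference genes were not themselves all equal between strains in the main covariate fit. Laptm5, which was abundant in all libraries, was higher in LG/J (1.12 ± 0.27, adjusted p = 0.00195, edgeR). Tyrobp was lower (-0.84 ± 0.17, adjusted p = 0.000423, edgeR), and Csf1r and Fcer1g did not pass. The calls thus depend on the choice of reference genes.

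The 2 richest libraries did not hold the genes in the same proportions. Taken per CPM of Csf1r, Ccr2 was at 0.0395 in LG/J male 6 and 0.27 in SM/J female 2, and Mpeg1 at 0.079 and 0.145. Ms4a7, a membrane protein of macrophages, was at 0.197 and 0.0275, Aif1, the actin-binding protein IBA1, at 0.0829 and 0.0143, and Lst1 at 0.0729 and 0.0125. Adgre1 (0.656 and 0.652), Itgam (0.215 and 0.216) and Ncf1 (0.0795 and 0.075) were nearly equal. In 13 libraries with at least 200 Csf1r reads, LG/J males 6 and 7 and 11 SM/J libraries, both LG/J ratios were under all 11 SM/J ratios for 7 of 27 genes with at least 50 reads in both richest libraries: Ccr2, Mpeg1, Cd14, Ncf4, Cd52, Coro1a and Itgb2. For 0 of the 27 were both over all 11. For Ms4a7, Aif1 and Lst1 it was SM/J female 2 that stood apart, with the lowest of the 13 ratios, as it was for 12 of the 27 genes. LG/J is represented by only 2 libraries here, and no test was made of these ratios. The same count was not made for genes outside the list, so the 7 cannot be set against a background. All ratios share the level of Csf1r, so a shift in Csf1r alone would move every gene.

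**Figure D5:**
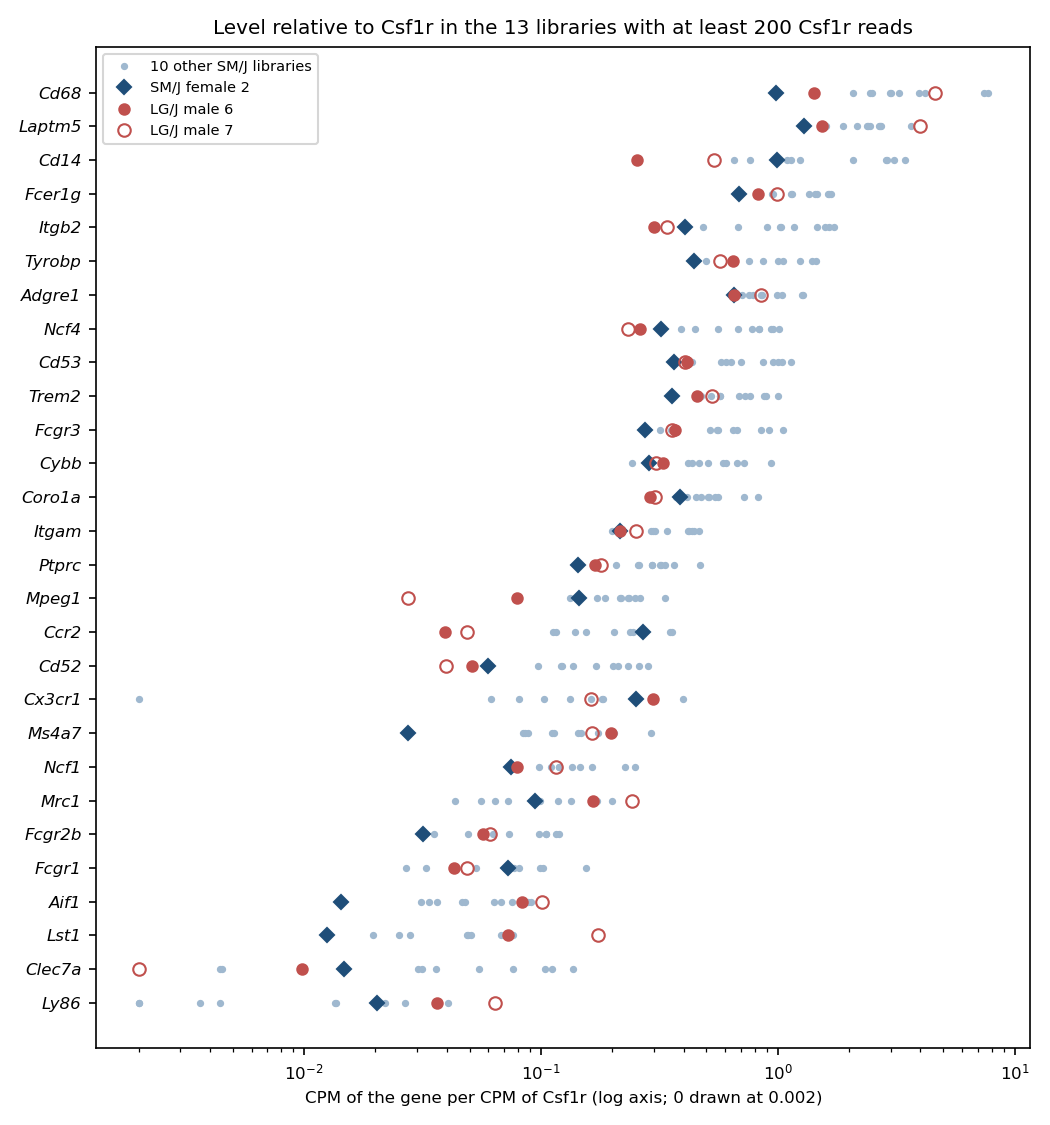
CPM of each gene per CPM of Csf1r (log axis, 0 drawn at 0.002) in LG/J male 6, LG/J male 7, SM/J female 2 and 10 other SM/J libraries, all with at least 200 Csf1r reads. Ccr2 and Mpeg1 lie lower in both LG/J libraries than in all SM/J libraries, and Ms4a7, Aif1 and Lst1 lie lowest in SM/J female 2.

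RefSeq promoter windows (GRCm38.p6) were found for 24 of the 34 genes. The letters GAGGAA, and separately the letters AGGAAGT, both of which contain the core GGAA of the site bound by PU.1, the Spi1 protein, were searched on both strands in the 250 bases before each start. A match to each can overlap a match to the other. One or both were in the windows of 13 of 24 genes (54.2%), against 30.2% of 27025 genes with windows. The 150 bases next to the start are shown for 4 genes lower in LG/J over both sexes or without the 2 richest libraries that hold a match, and for Mpeg1 and Ccr2, which hold none and are also lower. These 6 were chosen after their values were seen. Capitals mark a match to either motif on either strand, and the letters run 5′ to 3′ on the gene's strand.
Fcgr1 (chr3:96293970-96294119, minus strand): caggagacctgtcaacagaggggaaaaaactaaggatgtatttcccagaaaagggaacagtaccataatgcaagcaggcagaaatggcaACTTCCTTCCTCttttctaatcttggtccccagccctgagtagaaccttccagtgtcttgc
Itgam (chr7:128062490-128062639, plus strand): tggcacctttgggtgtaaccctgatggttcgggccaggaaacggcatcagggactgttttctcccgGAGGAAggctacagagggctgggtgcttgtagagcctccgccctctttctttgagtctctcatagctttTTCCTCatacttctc
Cd53 (chr3:106790150-106790299, minus strand): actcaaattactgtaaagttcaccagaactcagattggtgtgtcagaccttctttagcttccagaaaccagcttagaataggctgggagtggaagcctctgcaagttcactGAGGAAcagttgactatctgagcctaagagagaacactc
Fcgr3 (chr1:171059395-171059544, minus strand): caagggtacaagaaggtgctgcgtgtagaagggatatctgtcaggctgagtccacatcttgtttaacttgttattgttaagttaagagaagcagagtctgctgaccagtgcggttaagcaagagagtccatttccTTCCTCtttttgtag
Mpeg1 (chr19:12460620-12460769, plus strand): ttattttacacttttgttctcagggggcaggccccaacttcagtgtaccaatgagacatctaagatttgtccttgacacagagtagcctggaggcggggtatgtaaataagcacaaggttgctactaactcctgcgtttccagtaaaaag
Ccr2 (chr9:124102033-124102182, plus strand): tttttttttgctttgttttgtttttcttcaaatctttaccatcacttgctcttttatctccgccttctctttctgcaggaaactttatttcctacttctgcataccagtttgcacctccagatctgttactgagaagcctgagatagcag
Matches are a description of these letters, and a window without a match says only that the letters are not in it.

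The 15 genes outside the list whose pattern was most like it were ranked by the smaller of their Spearman correlations, over 16 LG/J and over 16 SM/J libraries, with the mean of the 30 standardised genes. Cd300a, an inhibitory receptor of myeloid cells, came first (0.94 in LG/J and 0.93 in SM/J), followed by Nfam1, Cd300ld, Myo1f, Clec4d, Nrros, Lair1, Cyth4, Ptpn6, Pirb, Dpep2, Myo1g, Rac2, Cd84 and Igsf6 (0.81 and 0.96). Rac2, the small GTPase of the phagocyte oxidase, was at 57.05 CPM in LG/J male 6 and 69.03 CPM in SM/J female 2, against medians of 0.746 and 8.24 in the other LG/J and SM/J libraries. Its log2 fold change between strains was -2.37 ± 0.72 (adjusted p = 0.012, edgeR). Of the 15 genes, 5 were lower in LG/J (Rac2, Cyth4, Myo1f, Myo1g and Pirb), against 13.5% of all genes. The other 10 did not pass, among them Cd300a (-1.32 ± 0.55, adjusted p = 0.0683). All 15 were picked for following the listed genes over these same libraries, so their levels and strain differences are no separate support.

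Other genes of the pathway were read from lists chosen for this description, and their counts stand beside 13.5% lower and 16.4% higher in LG/J among all genes. Of 7 genes of the Csf growth factors and their receptors, 4 were tested and 1 was lower in LG/J: Csf2rb, a shared receptor chain (log2 fold change -2.16 ± 0.60, adjusted p = 0.00589, edgeR). The ligand Csf1 was at 97.55 CPM in LG/J male 6 and 343.5 CPM in SM/J female 2, within the 54.37 to 840.6 CPM of the other 30 libraries. Of 5 further chemokine receptors 2 were lower in LG/J, Cxcr4 (-1.82 ± 0.36) and Ccr1 (-2.11 ± 0.56), and of 9 monocyte chemokines tested 1 was, Ccl9 (-2.99 ± 0.44). Of 13 other Fc and lectin receptors 3 were lower, Clec4n, Clec4a3 and Pirb, and of 13 adaptors and kinases downstream of such receptors 1 was, Lat2 (-1.50 ± 0.52). None was higher in these 5 lists. Without the 2 richest libraries, 10 of the Fc and lectin receptors, 7 of the adaptors and kinases, 4 of the chemokine receptors and 3 of the chemokines were lower. Of 12 lysosomal and phagocytic genes 6 were lower and 1 higher, with Lyz1 at -6.70 ± 0.41 and Mertk, a receptor for dying cells, at 0.56 ± 0.11. Of 8 macrophage activation genes tested 5 were higher and 1 lower in LG/J, with Mgl2, a lectin, at 3.14 ± 0.39 and the cytokine genes Il6 and Cxcl2 at 4.05 ± 1.01 and 4.63 ± 1.18. Il6 was at 63.87 and 39.77 CPM in LG/J female 1 and male 1, and its medians in the other LG/J and SM/J libraries, the richest left out, were 0.335 and 0.411 CPM. The 13 activation genes summed to 3655 CPM in LG/J female 1, against medians of 81.83 CPM over LG/J and 51.69 CPM over SM/J libraries. How many of the 5 calls remain without the LG/J libraries numbered 1 was not counted. Of 11 resident macrophage genes tested 2 were lower and 1 higher, F13a1 (1.72 ± 0.41), and of 11 myeloid transcription factors 1 was lower and 1 higher, Batf3 (1.23 ± 0.32).

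The 2 richest libraries were also high for some other macrophage genes. In LG/J male 6 and SM/J female 2, 16 resident macrophage genes summed to 263.8 and 219.8 CPM, within the 55.15 to 687.8 CPM of the others. Sums for 13 activation, 12 inflammatory monocyte and 12 lysosomal and phagocytic genes also lay within the range of the others. Those for 13 Fc and lectin receptors (348.3 and 287.6 CPM) and 5 chemokine receptors (231.5 and 204.7 CPM) were above the 135 and 63.99 CPM reached elsewhere. A sum mostly follows the abundant genes of its list. Gene by gene, 13 and 10 of the 16 resident macrophage genes were above all other 7 libraries of the group. So were 8 and 7 of the 12 lysosomal and phagocytic, 6 and 4 of the 13 activation and 4 and 5 of the 12 inflammatory monocyte genes. The share over all genes was not counted. The complement receptors C3ar1 and C5ar1 were at 129.6 and 80.96 CPM in LG/J male 6 and at 102.5 and 78.35 CPM in SM/J female 2, and were at most 32.9 CPM elsewhere. The resident macrophage gene Folr2, a folate receptor, was at 12.38 and 12.99 CPM, and at most 3.17 elsewhere. Timd4, another such gene, was at 1.14 and 0 CPM, and Lyve1 at 0 and 0.306 CPM.

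Some lists for other blood and vessel cells were also above the other libraries, and others lay within their range. In LG/J male 6 and SM/J female 2, the T cell gene Cd3e was at 0.327 and 0.35 CPM, the B cell gene Cd79a at 0.204 and 0.0437 CPM, the natural killer cell gene Ncr1 at 0.164 and 0.0437 CPM and the red cell gene Hbb-bs at 0.0817 and 0.0437 CPM. Summed lists were 1.19 and 0.437 CPM for 8 natural killer cell genes, 1.10 and 0.744 for 8 red cell genes, and 12.71 and 8.09 for 10 vessel genes, where the other 30 libraries reached 1.81, 1.22 and 12.62 CPM. The 12 T cell genes summed to 47.33 and 30.93 CPM, above the 26.3 CPM reached elsewhere, of which Cd28 made up 41.97 and 26.95 CPM. The 10 B cell genes summed to 20.84 and 17.89 CPM, within the 9.61 to 43.24 CPM of the others. The 12 neutrophil genes summed to 46.43 and 9.06 CPM, of which Mmp8 made up 44.59 CPM in LG/J male 6. Both sums lay within the 1.845 to 122.1 CPM of the others (median 6.31 CPM, highest in LG/J female 1). The 10 dendritic cell genes summed to 26.61 and 36.7 CPM, where the others reached 29.64 CPM. Of 12 osteoclast genes, which mark the bone-resorbing cell of the same lineage, 9 were tested and 3 were lower in LG/J over both sexes (13.5% among all genes), Oscar (-2.37 ± 0.32), Dcstamp (-2.76 ± 0.42) and Atp6v0d2 (-1.66 ± 0.42). The summed osteoclast level was 239.2 and 328.2 CPM in the 2 richest libraries, within the 201.8 to 543.4 CPM of the others. Their part in the strain difference was not tested.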

How the data were processed

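Whole-number read counts per Ensembl gene were deposited by the authors for 32 libraries, next to CPM and RPKM. The submitters' processing notes name STAR 2.0.4b, featureCounts 1.45, Subread and the build GRCm38. The strand setting is not given in the sources used here, so genes overlapping others (Cx3cr1, Ncf1, Cd52, Csf1r) are uncertain where strand was not used. The CPM and RPKM deposited equalled values recomputed from the counts to within 1.2e-10 and 4.9e-11. RPKM values printed are the deposited ones, and CPM printed were rescaled here by TMM.

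All 32 libraries were fitted at once on the deposited counts (edgeR 4.0.16, R 4.3.3, filterByExpr, TMM, robust quasi-likelihood, a mean per group). SE is the log2 fold change over the square root of F. Alternatives used DESeq2 1.42.0 and limma 3.58.1 (voom). The tests were tried on simulated counts. Log values for correlations used a prior count of 2. A library held transcripts of both sexes if the gene of the other sex (Xist or Ddx3y) was above 5 CPM.

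Members and lists were chosen with earlier results of these data known. Named genes were all members, up to 3 called genes of each list with the smallest p, the 15 most similar genes and Col2a1, Acan and Sox9; other genes named as markers of the richest libraries or other cells were chosen after their values were seen. Protein sequences were not used here.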

Additional observations from a re-analysis of the deposited data

Results flagged for a closer look

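Within each group of 8 libraries, the gap from the highest or lowest library to the nearest other was compared with the group's range for 136 pairs of group and gene (Dixon's test at 95%). Of these, 72 pairs passed. LG/J male 6 and SM/J female 2 were named as the richest when the genes were chosen, so the 62 pairs they account for are a description. LG/J male 6 stood above its group for 32 genes, all but Cd68 and Cd14, and SM/J female 2 for 30 genes, all but C1qa, Cd52, Ms4a7 and Clec7a. In other libraries 10 pairs passed. Chance flags about 1 in 20 groups only where values are normally distributed and genes independent. All pairs that passed were on the high side and the genes rise and fall together, so the 10 cannot be judged against that rate. LG/J female 1 stood above its group for 3 genes, Cd14 (370.5 CPM), Cd68 (148.4 CPM) and Trem2 (18 CPM), and LG/J male 1 for 1, Cd14 (249.7 CPM). SM/J male 8 did so for 2 genes, Csf1r (30.1 CPM) and Ncf4 (28.15 CPM), and LG/J female 4 for 2 genes at low levels, C1qb (0.331 CPM) and C1qc (0.52 CPM). SM/J male 2 stood apart for 1 gene, C1qa (1.39 CPM), and SM/J male 5 for 1, C1qc (1.16 CPM).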

How the results depend on the processing

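Percentages here are the share of all genes called in either direction under the same setting. Over both sexes 13 of 30 genes were called (29.9%). The calls came to 7 (19.6%) when libraries within 7 times sampling noise of each other were summed. They came to 22 of 29 (33.7%) without the 2 richest and both LG/J number 1 libraries. These 2 settings were chosen after seeing the data. Without LG/J male 6 there were 25 calls (30.4%). Leaving out each library in turn gave 9 (without SM/J female 2, 29.5%) to 25 calls (without LG/J male 6, 30.4%). It gave 10 without SM/J male 8 (27.8%), with Tyrobp, Fcer1g and Fcgr3 lost. In females the 16 calls (13.4%) became 1 under limma voom (15.1%) and 8 without SM/J female 2 (11.9%). In males the 1 call (22.3%) became 2 under DESeq2 (24.8%), without SM/J female 2 (22.1%) and without both LG/J number 1 (24.7%). It became 6 under limma voom (35.1%), 13 without LG/J male 6 (21.5%) and 14 of 29 without both richest (21.9%). In LG/J, DESeq2 called 1 gene between sexes (0.124%). At an equal level of the reference genes the 11 calls (26.8%) became 6 with Ptprc as covariate (26%). The value of Cd14, strain difference over both sexes (0.57), was 1.05 without SM/J female 2 and turned to -0.85 under DESeq2, -1.09 under limma voom, -0.75 with the library number as a block, -1.44 without both LG/J number 1, -1.18 without these and the 2 richest, and -0.67 or -0.19 without LG/J female 1 or male 1. That of Csf1r, strain difference in males (0.79), turned to -1.49 under limma voom, -0.96 with the block, and -1.73 without LG/J male 6 or both richest. The cause was not tested except where libraries were left out.

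The labels do not say that a library number marks a shared source. Same-numbered libraries of different groups had correlated deviations above 0.1 in 30 of 48 pairs (7 of 8 between LG/J females and males, 4 of 8 between SM/J females and males). The highest value, 0.84, was that of the LG/J number 1 pair. A library correlated best with its own number, among the 8 of the other group, in 16 of 96 comparisons. Pairs of unlike number above 0.1 were not counted, and whether the number marks a shared source was not tested. With the number as a replicate block the calls came to 16 with the sexes together (32.8% of all genes), 14 for females (14.9%), 1 for males (25.7%) and 0 between sexes. Genes under about 1 CPM (C1q genes, Spi1, Cd163, Clec7a) rest on few reads per library, and a low count there does not show absence. The same holds within LG/J, the richest library left out, for genes such as Fcgr1 (median 0.0573 CPM) and Mpeg1 (median 0.176 CPM). Close pairs of libraries, counted as separate here, make p-values too small if they share a source.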

Other observations

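Immune genes outside the list were also high in the 2 richest libraries, read here as values chosen after they were seen. SM/J female 2 held Cd74, the invariant chain of MHC class II, at 108.1 CPM, against a median of 3.76 CPM and a highest value of 61.2 CPM in the other 7 SM/J female libraries. The interferon-induced genes Oas1a (9.06 CPM, median 0.265) and Oasl2 (15.18 CPM, median 0.619) had ratios of 34.1 and 24.5 to the median of the same libraries. LG/J male 6 held Fcrls, a receptor-like gene of tissue macrophages and microglia, at 68.91 CPM against a median of 0.233 CPM in the other 7 LG/J male libraries, and SM/J female 2 at 33.68 CPM against 0.421 CPM. Cd207, a lectin of Langerhans cells, was at 11.32 CPM in LG/J male 6 and 15.35 CPM in SM/J female 2. LG/J male 6 also held the collagenase gene Mmp8 at 44.59 CPM, with SM/J female 2 at 5.56 CPM and the remaining 30 libraries between 0.505 and 12.33 CPM, and with S100a8 at 0.286 CPM.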
